A study of Xiphophorus maculatus x Xiphophorus hellerii with 32 samples.

Results

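A set of 54 transcripts was examined that were higher in melanoma than in skin in some fish and lower in melanoma than in skin in others. The members were selected by their measured values, out of 20469 transcript models with an Ensembl-style identifier among 20499 rows in all. For each of 14 fish with both tissues, the difference D was taken as log2(CPM + 1) in tumor minus log2(CPM + 1) in skin, where CPM is the count per 1000000 counts of the library. A member had a mean of at least 5 CPM over the 28 paired libraries, a D of at least 1 (about a 2-fold higher level in tumor) in 4 or more fish, and a D of -1 or lower in 4 or more fish. Since D chose the members, the values of D below are a description and carry no test.

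The tissue came from BC1 backcross fish of the cross between X. maculatus (a platyfish) and X. hellerii (a swordtail), all of them 9 months old and all bearing melanoma. There were 16 libraries of spontaneous melanoma, labelled tumor, and 16 of skin, and both tissues of a fish share its hybrid genotype. Fish are named by a title number and a letter, and the labels do not say what the title number stands for: 11935 had 3 fish with both tissues, 11949 had 7, 11960 had 1 and 11963 had 3. All skins came from fish with melanoma, so there was no skin of a tumor-free animal. One tumor column carries a shortened name that reads as 11960b, a fish with a skin library but no tumor title, while the tumor title left without a column is 11969b. Whether these are the same fish is not stated, so the column entered as a tumor with no paired skin and no title number.

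The cross is the Gordon-Kosswig melanoma model. The platyfish contributes Xmrk, a mutated copy of the epidermal growth factor receptor gene that drives growth of pigment cells, and backcrossing to the swordtail removes the platyfish alleles that hold it in check. The offspring inherit different mixtures of parental alleles, so that a transcript may differ between fish in any tissue. A piece of skin or of tumor also holds several cell types besides pigment cells. In bulk RNA, fewer cells of a type and less RNA per cell cannot be told apart.

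Total counts ranged from 2578877 to 6977222 in tumors and from 4239036 to 6673975 in skins, and the shallowest library was the tumor of 11949f. Xmrk, the gene that marks the tumor, lay between 139 and 1343 CPM in the paired tumors and between 19 and 119 CPM in the paired skins, so the tissues followed their labels at this gene. The files pair no member with a gene name, so neither the function of a member nor any list of cell type markers could be brought to the set, and no melanophore or skin marker other than Xmrk could be checked. Members are therefore described by their level and by their pattern over fish. The files do not say which identifiers belong to the same gene or to near-identical copies, so members may share reads or a gene, and the count of 54 is one of transcript models.

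The members spanned a wide range of levels. Of the 54, 12 averaged 1000 CPM or more over the paired libraries, 12 lay between 100 and 1000 CPM, 21 between 10 and 100 CPM and 9 between 5 and 10 CPM. Their median was 72.3 CPM, against 22.3 CPM for all 12253 identifiers that reached a mean of 5 CPM. Together they took between 0.105% and 14.3% of the counts of a paired tumor and between 1.28% and 5.36% of a paired skin. Of the 12253, 2278 (18.6%) were higher in the tumor of 4 or more fish and 1380 (11.3%) were lower in 4 or more, and 54 (0.441%) met both conditions.

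In most members D rose and fell over the fish in a similar way. The fish past 1 or -1 were not always the same: the 54 showed 30 distinct sets of directions, the commonest shared by 14 members. Members were grouped by the correlation of D over the 14 fish (average linkage). Groups were parted at a mean distance of 0.5 on the scale of 1 minus r. Of the 54, 45 fell into a large group, 8 into a small group and 1 stood alone. This grouping was made after the values had been seen, and it is not tested. Within the large group the median r between pairs of members was 0.93, with a range of 0.59 to 0.999. Within the small group the median r was 0.71, with a range of 0.29 to 0.997. Between a member of the large and a member of the small group the median r was 0.41. The points of these correlations are the same 14 fish and the same libraries, so depth and composition of a library enter all of them.

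**Figure D1:**
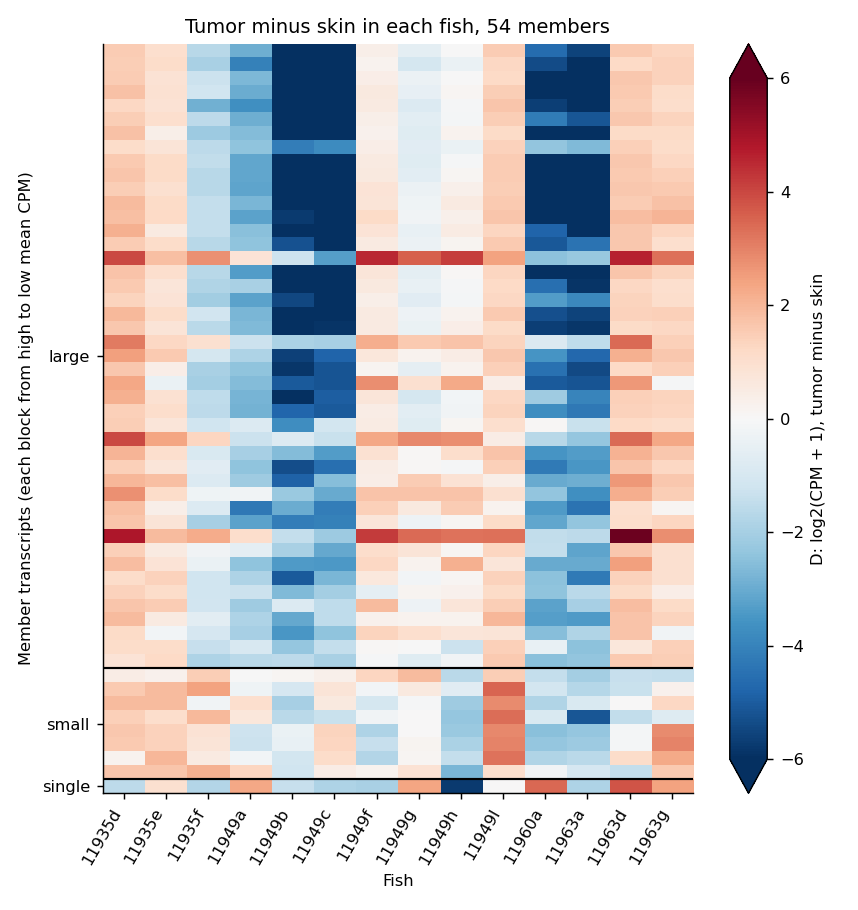
D, the difference of log2(CPM + 1) between tumor and skin of the same fish, for the 54 members (rows, in blocks for the large group of 45, the small group of 8 and the single member) in 14 fish (columns); red is higher in tumor, blue lower, and the colour scale ends at 6 in either direction. The large group is blue in the columns of 11949a, 11949b, 11949c, 11960a and 11963a and red in those of 11935d, 11949l, 11963d and 11963g, while the small group follows another order of fish.

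The large group was abundant and could be read from its summed share of a library. In the tumor of 11949l it made up 14.1% of all counts, against 5.31% in the skin of that fish. The tumor of 11963g had 12.1%, against 4.89% in its skin, and the tumor of 11935e had 9.00%, against 4.65% in skin. In 11963d the share was 5.57% in tumor, against 1.89% in skin, and in 11935d it was 4.15% in tumor, against 1.35% in skin. In these 5 fish the tumor therefore held between 1.94 and 3.08 times the share of the skin.

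At the other end, the tumor of 11949c held 0.0256% of its counts in the large group, against 2.91% in its skin, a 114-fold lower share. The tumor of 11963a had 0.0304%, against 1.45% in skin (47.7-fold lower), and the tumor of 11960a had 0.0379%, against 1.0% in skin (26.5-fold lower). In 11949b the share was 0.0608% in tumor, against 4.34% in skin (71.3-fold lower). A further pair of fish, 11949a with 0.356% in tumor against 2.91% in skin and 11935f with 1.03% in tumor against 3.13% in skin, had lower shares in tumor by 8.16-fold and 3.03-fold. The remaining 3 fish lay close to even: 11949f had 5.09% in tumor and 3.59% in skin, 11949g had 3.49% in tumor and 5.19% in skin, and 11949h had 2.97% in tumor and 2.88% in skin.

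The tumors thus covered a far wider range than the skins, a 551-fold range over the 14 paired tumors against 5.31-fold over the 14 paired skins. Every paired skin held at least 1.0% of its counts in the large group, a level that the tumors of 11949a, 11949b, 11949c, 11960a and 11963a did not reach. All 45 members had at least 1 count in every skin. In the tumor of 11949c 18 of the 45 had 0 counts, in that of 11963a 13, in that of 11960a 7 and in that of 11949b 5. The rule favours low values in some tumors, and the share of all transcripts at 0 counts was not computed, so these counts are a description.

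**Figure D2:**
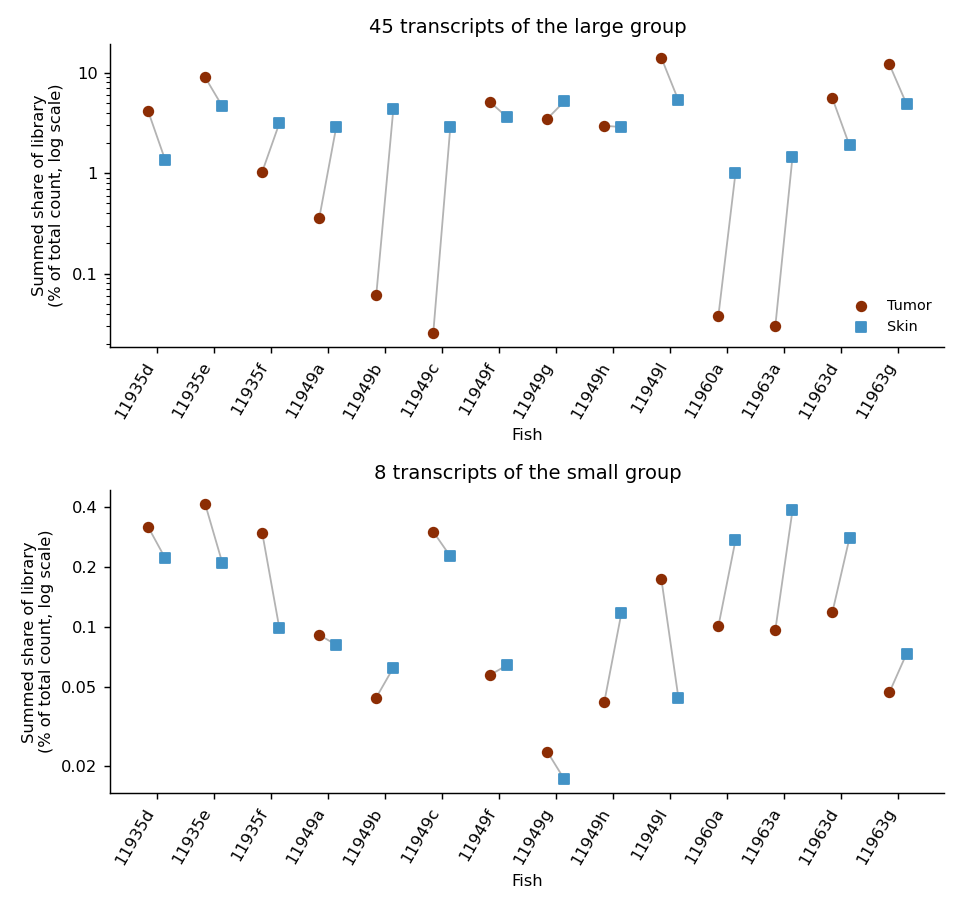
Summed share of the library (percent of the total count, log scale) of the 45 transcripts of the large group (upper panel) and the 8 of the small group (lower panel) in the tumor (circle) and the skin (square) of each of 14 fish, with 1 library per point. In the upper panel the skins stay between 1.0% and 5.31% while the tumors run from 0.0256% to 14.1%. In the lower panel tumors and skins cover similar ranges.

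Counted by fish, the agreement among the 54 members was as follows, beside the share of all 12253 transcripts past the same difference in the same fish. These counts rest on the values that chose the members. A D of at least 1 was found for 50 members in 11935d (5.26% of all transcripts), 29 in 11935e (5.71%), 45 in 11949l (13.6%), 46 in 11963d (10.3%) and 44 in 11963g (8.89%). A D of -1 or lower was found for 34 members in 11935f (10.1%), 41 in 11949a (7.01%), 49 in 11949b (8.28%), 47 in 11949c (10.9%), 48 in 11960a (11.2%) and 53 in 11963a (10.8%). In 11949f 13 members were higher (8.06%) and in 11949g 9 were higher (23.6%). In 11949h 9 were higher (10%) and 9 lower (7.82%).

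None of the 3 title numbers with several fish stood on 1 side. Within 11949, tumors of 3 fish were low in the large group (11949a, 11949b and 11949c), 1 was high (11949l) and 3 were close to skin. Within 11963 the tumor of 11963a was low and those of 11963d and 11963g were high, and within 11935 the tumor of 11935f was low while those of 11935d and 11935e were high. The scale moved these values to some extent, because the median D of all 12253 transcripts was not 0: it was 0.72 in 11949a and 0.51 in 11949g. With TMM or RLE scaling, which centre most transcripts, the median D of all 54 members kept its sign in all 14 fish. In 11949g the count of members lower in tumor by 1 or more was then 15 with TMM and 17 with RLE, against 2 by total counts.

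The most abundant member, ENSXMAT00000003165, belonged to the large group and averaged 5237 CPM. In tumors it had 19508 CPM in 11949l, 18139 in 11963g, 13399 in 11935e, 8122 in 11963d and 5003 in 11935d, against 6761, 7336, 6641, 2745 and 1730 CPM in the skins of these fish in the same order. In the other direction it had 41.3 CPM in the tumor of 11949c, 44.2 in that of 11963a, 61.5 in that of 11960a and 76.6 in that of 11949b, against 4490, 2123, 1549 and 5469 CPM in their skins. The skins of 11949b and 11949c lay above the median paired skin of 4317 CPM and those of 11960a and 11963a below it. By the summed share of the large group, the median paired skin held 3.02%. The skin of 11949b (4.34%) lay above this, and those of 11949c (2.91%), 11963a (1.45%) and 11960a (1%) lay below it. For this transcript, tumor and skin levels correlated at r of 0.47 over the 14 fish. The intermediate tumors had 463 CPM in 11949a and 1274 in 11935f, against 3542 and 4041 CPM in skin, and the tumors of 11949f, 11949g and 11949h had 7238, 5191 and 4081 CPM, against 5605, 7832 and 4143 CPM in skin.

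ENSXMAT00000013451, also of the large group, was the member with the most fish in its less frequent direction. It had a D of at least 1 in 6 fish and of -1 or lower in 6. Its tumors reached 2788 CPM in 11963g and 2312 CPM in 11949l, against 687 and 737 CPM in their skins. It had 0 counts in the tumor of 11963a, against 1572 counts (243 CPM) in its skin, and 2 counts in the tumor of 11949c, against 3438 counts (648 CPM) in skin. The tumor of 11960a had 9 counts and that of 11949b 33 counts, against 972 and 2375 counts in their skins. D ran from -8.85 in 11949c to 2.02 in 11963g.

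In the median of the large group the magnitude differed between the directions, though not in the same way in every member. The median D of the 45 members reached 1.65 in 11935d at most and -5.23 in 11949b at least. Of the 45, 40 were lower by at least 1 in all of 11949b, 11949c, 11960a and 11963a. A D above 0 in all of 11935d, 11935e, 11949l, 11963d and 11963g was found for 43, of which 15 reached 1 in each of the 5. These fish were picked after their D was seen, and the same joint conditions were not counted over all transcripts. Among the members, the upward condition was more often met at its minimum. Of all 54, 30 had exactly 4 fish with a D of at least 1, whereas 10 had exactly 4 fish with a D of -1 or lower. Transcripts with exactly 4 such fish were not counted over the whole table, so nothing is read from this difference. Over all 12253 transcripts the downward condition was the rarer one, met by 1380 (11.3%) against 2278 (18.6%) for the upward.

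A few members of the large group were high in more tumors than the rest. In 5 of the 45, D was at least 1 in 7 to 10 fish, and each of the 5 had a D of at least 1 in 11949f, 11949g and 11949h. Of all 12253 transcripts, 8.06%, 23.6% and 10% had such a D in these fish in turn. The joint conditions were not counted over all transcripts. The most abundant of the 5 averaged 276 CPM, with a median of 286 CPM (range 0.722 to 1855) in tumors against 46.8 CPM (8.39 to 167) in skins, and it had a D of 4.50 in 11949f, 3.57 in 11949g and 4.15 in 11949h. Its D was still -3.29 in 11949c, -2.45 in 11960a, -2.26 in 11963a and -1.22 in 11949b. Another of them, at a mean of 17.6 CPM, had a D of at least 1 in 10 fish, up to 5.90 in 11963d, where its skin had 2 counts. Its D was -1 or lower in the same 4 fish as the first. There its tumor had 0 counts, against 9 to 19 counts in skin, so these low values are limited by depth. These 5 shared the 4 low tumors, or 3 of them, with the rest of the group. They differed in 11949f, 11949g and 11949h and also in 11935f. There their D was 2.75, 0.94, 1.28, -0.25 and 2.21 from the most to the least abundant, against a group median of -1.41. In 11949a the members at 276 and 17.6 CPM had a D of 0.83 and 1.06, against a group median of -2.43.

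**Figure D3:**
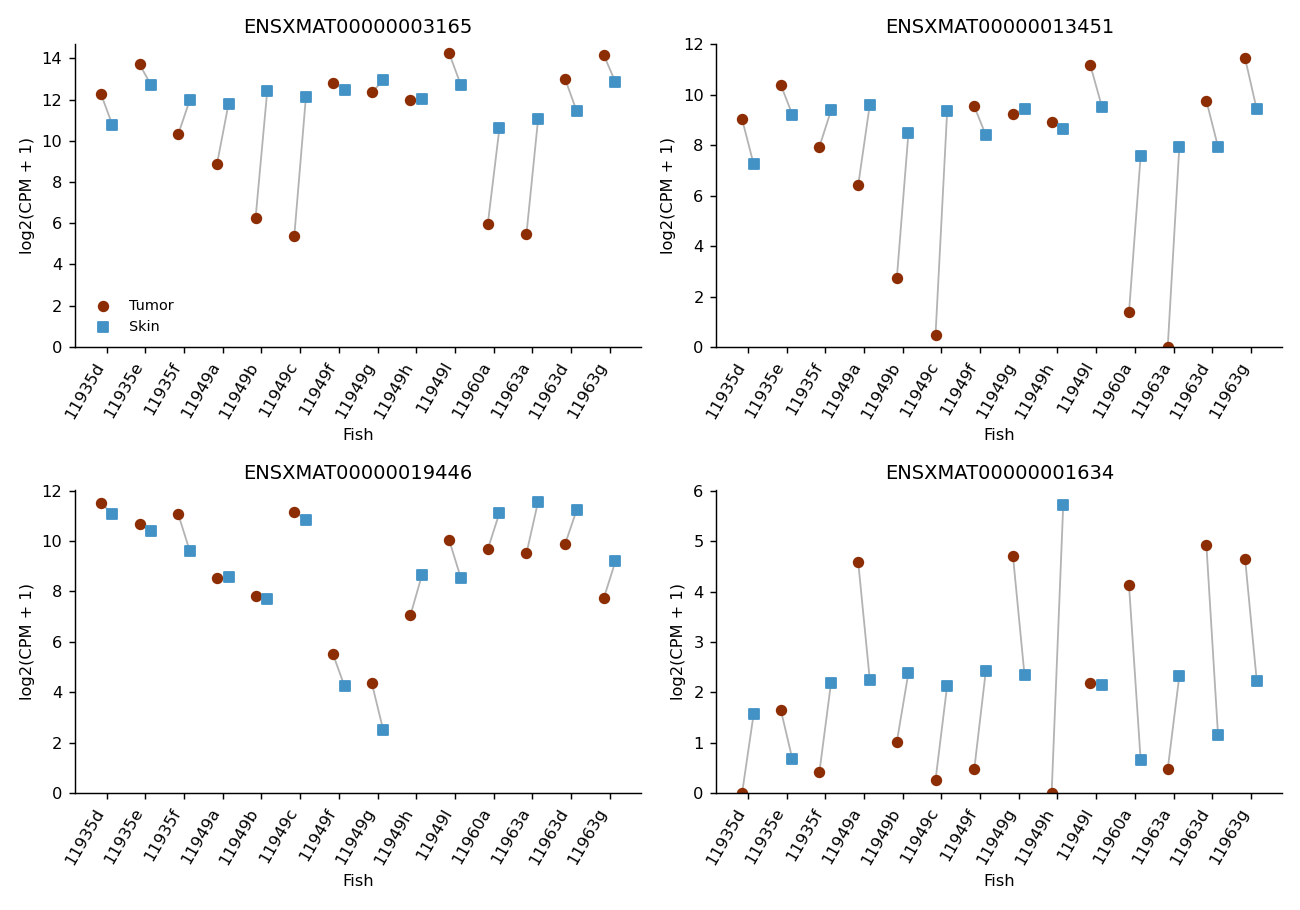
Level of 4 members in the tumor (circle) and the skin (square) of each of 14 fish, as log2(CPM + 1) on axes that start at 0, with a line joining the tissues of a fish and 1 library per point. The upper panels show 2 members of the large group, whose skins vary less than their tumors and whose tumors of 11949b, 11949c, 11960a and 11963a lie far below; the lower panels show the most abundant member of the small group, which differs between fish in both tissues, and the member that stood alone.

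The spread between fish was set mainly by the tumors in the large group. The SD of log2(CPM + 1) over 14 tumors exceeded that over 14 skins in all 45 members of it, and in 51 of all 54, against 49.5% of the 12253 transcripts. The median SD of the large group was 2.97 in tumors and 0.84 in skins, and for all 12253 transcripts it was 0.70 in tumors and 0.69 in skins. The small group showed no such imbalance, with a median SD of 1.30 in tumors and 1.35 in skins and a larger SD in tumor for 5 of 8. The rule favours a large spread in at least 1 tissue, so these values describe the members and are not a test.

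Levels in the tumor and the skin of a fish were less alike for the members than for other transcripts. The correlation between the tissues over the 14 fish had a median of 0.44 in the large group and 0.25 in the small group, against 0.70 for the 12253 transcripts. A rule on opposite values of D favours low correlations, and these are again a description. The highest value, 0.87, belonged to the most abundant member of the small group.

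**Figure D4:**
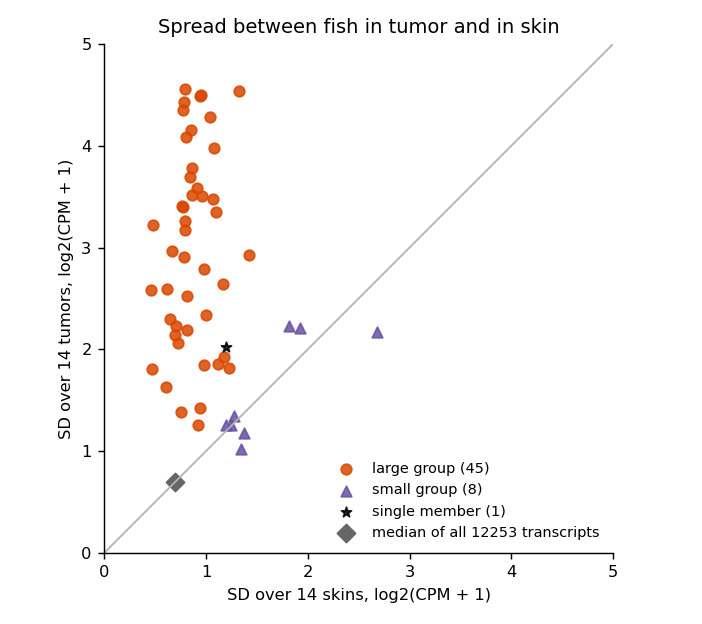
SD of log2(CPM + 1) over the 14 paired tumors (vertical axis) against the SD over the 14 paired skins (horizontal axis) for each of the 54 members, with the line of equal SD; the diamond is the median of all 12253 transcripts at 5 CPM or more. The 45 members of the large group lie above the line, with medians of 2.97 in tumors and 0.84 in skins, and the 8 members of the small group lie around it.

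The small group followed a different order of fish. Its median D was highest in 11949l (2.92), then 11935d (1.57), 11935e (1.53), 11963g (1.40) and 11935f (1.17), and lowest in 11949h (-2.01), 11963a (-1.88), 11960a (-1.61) and 11949b (-1.07). The median D of the small group had the opposite sign to that of the large group in 6 fish. It was 1.17 in the small and -1.41 in the large group in 11935f, 0.68 and -4.93 in 11949c, -2.01 and 0.21 in 11949h, and -0.73 and 1.60 in 11963d. In 11949f it was -0.63 in the small and 0.57 in the large group, and in 11949g 0.14 and -0.32. By median D both groups were lower in the tumors of 11949a, 11949b, 11960a and 11963a, with -0.08 for the small group in 11949a, and higher in those of 11935d, 11935e, 11949l and 11963g. The summed share of the small group went the other way in 11963g, with 0.0471% in tumor and 0.0736% in skin, and in 11949a, with 0.0916% in tumor and 0.0815% in skin.

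ENSXMAT00000019446, the most abundant of the small group at a mean of 1048 CPM, differed between fish in both tissues. It had 19.8 CPM in the tumor and 4.63 CPM in the skin of 11949g, and 44.6 CPM in the tumor and 17.8 CPM in the skin of 11949f. At the high end it had 2938 CPM in the tumor and 2135 CPM in the skin of 11935d, and 731 CPM in the tumor and 3025 CPM in the skin of 11963a. Its tumor was lower than its skin in 11949h, 11960a and all 3 fish of 11963, with D between -2.05 and -1.36, and higher by at least 1 in 11935f, 11949f, 11949g and 11949l. It made up more than 50% of the summed small group in 8 of 14 paired tumors and 9 of 14 paired skins, but 7.74% in the tumor and 2.75% in the skin of 11949f and 8.37% in the tumor and 2.69% in the skin of 11949g. The summed shares of the small group therefore follow this transcript in some fish and the other 7 in others. The D of this transcript correlated with the median D of the small group at r of 0.59, against 0.80 to 0.92 for the other 7. In 11963g it was -1.45, against a group median of 1.40, and in 11949f 1.28, against -0.63. The other 7 averaged between 7.65 and 279 CPM. A pair of them, at 31.6 and 23.5 CPM, had values of D within 0.46 of each other in every fish and the highest r of the group (0.997), and whether they share reads is not known.

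The member that stood alone, ENSXMAT00000001634, was a low-level transcript with a mean of 7.75 CPM. Its tumors fell into high and low values: 29.2 CPM in 11963d, 25.2 in 11949g, 24.1 in 11963g, 23.2 in 11949a and 16.4 in 11960a, and between 0 and 3.54 CPM in the other 9 tumors. The skins of the 5 fish with high tumors had 1.23, 4.05, 3.71, 3.77 and 0.585 CPM in the same order. Skin was high in 1 fish, 11949h, with 51.9 CPM (322 counts), where the tumor had 0 counts. All other paired skins lay between 0.585 and 4.40 CPM, and D of -1.96 to -1.37 in 6 further fish therefore rests on 28 counts or fewer per library.

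The libraries that had no part in the choice of members gave the following levels. The tumor column without a fish held 0.0289% of its counts in the large group, with 14 of 45 members at 0 counts, and thus lay among the 4 lowest paired tumors. The tumor of 11949d held 2.07%, between the paired tumors of 11935f and 11949h. The skins of 11960b and 11949q held 0.828% and 1.2%, so that 11960b lay just below the lowest paired skin, and 0 of the 45 members had 0 counts in either. With all 16 libraries per tissue the range was 551-fold in tumors and 6.41-fold in skins. In the single member, the tumor of 11949d had 7.44 CPM, the tumor column without a fish 0.884 CPM, the skin of 11960b 5.50 CPM and the skin of 11949q 0 counts.

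Transcripts outside the set moved with the large group. Of the 12199 other identifiers at 5 CPM or more, 226 (1.85%) had a D that correlated with the median D of the large group at r of 0.9 or more over the 14 fish, a limit chosen after the values were seen. The median r over all 12199 was -0.17. Of the 226, 224 missed membership because fewer than 4 fish reached a D of 1, and 30 of these had 3 such fish. Their median D was -4.76 in 11949b, -4.22 in 11949c, -3.89 in 11963a and -3.60 in 11960a, and 0.92 in 11935d, 0.76 in 11963d, 0.53 in 11963g and 0.37 in 11949l. The 226 were chosen by this r, so an order of fish like that of the large group follows from the choice and is a description. Together the 45 and the 226 took 36.0% of the counts in the tumor of 11949l and 33.4% in that of 11963g, against 17.6% and 17.3% in their skins. They took 0.557% in the tumor of 11960a and 0.653% in that of 11949c, against 5.55% and 11.6% in their skins. CPM is relative to the library total, so all other transcripts together had a smaller remainder in the tumors of 11949l and 11963g than in their skins. The median D of all 12253 transcripts was 0.08 in 11949l and -0.09 in 11963g.

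**Figure D5:**
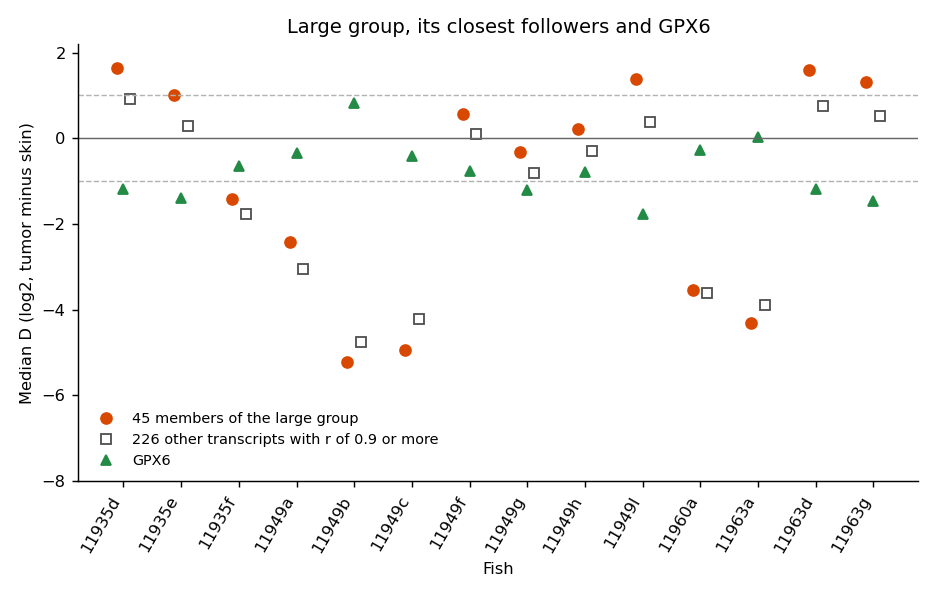
Median D (log2 scale, tumor minus skin) in each of 14 fish for the 45 members of the large group (filled circles) and the 226 other transcripts with r of 0.9 or more to them (open squares), and D of the single gene GPX6 (triangles); dashed lines mark 1 and -1. The medians of the 226, which were chosen by that r, run from -4.76 in 11949b to 0.92 in 11935d. GPX6 lies between -1.76 in 11949l and 0.83 in 11949b.

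Rows with a gene symbol could not be members, and of the 20 that reached 5 CPM, 0 met the same conditions. GPX6, of the glutathione peroxidase family of peroxide-reducing enzymes, ran against the large group (r of -0.89 between D values over 14 fish), and it was picked out here after the values were seen. The other 19 lay between -0.48 and 0.28. Of the 12199 other identifiers, 6 had an r of -0.85 or lower. GPX6 had 4.89 CPM in the tumor and 19.0 CPM in the skin of 11949l, 4.22 CPM in tumor and 13.3 CPM in skin of 11963g, and 6.59 CPM in tumor and 18.9 CPM in skin of 11935e, the 3 fish with the highest tumor shares of the large group. It had 8.07 CPM in the tumor and 4.10 CPM in the skin of 11949b, 12.1 CPM in tumor and 11.9 CPM in skin of 11963a, 8.84 CPM in tumor and 10.9 CPM in skin of 11960a, and 7.69 CPM in tumor and 10.5 CPM in skin of 11949c. In 11949c, the tumor with the lowest share of the large group, GPX6 was thus lower in tumor, with a D of -0.41. It was also lower in tumor, as was the median of the large group, in 11949g (-1.21), 11935f (-0.65), 11949a (-0.35) and 11960a (-0.28). The correlation thus concerns the order of fish and not an opposite sign in each fish. Its counts lay between 22 and 188 per library. Its D, like that of every transcript here, is relative to library totals that include the large group.

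Xmrk did not follow the large group. Its tumor level was 396 CPM in 11949c, 431 in 11963a, 645 in 11960a and 809 in 11949b, the 4 tumors with the least of the large group. It was 424 CPM in 11949l, 534 in 11963g and 772 in 11963d, where the large group was high, and these ranges overlap. The lowest Xmrk tumors were 11935d with 139 CPM and 11935e with 192 CPM. Their shares of the large group were 3.08 and 1.94 times those of their skins. In 11949h, the tumor with the highest Xmrk at 1343 CPM, the share was 1.03 times that of its skin.

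Title number was the only further grouping in the labels, and levels within a tissue were compared between 11935, 11949 and 11963. Most of these libraries also chose the members, and the rule favours a wide spread between fish, which enters the error of this comparison, so the counts are a description. In 14 tumors 0 of 54 members passed an adjusted p of 0.05 (edgeR quasi-likelihood test of both coefficients jointly), where 0.00636% of 15724 transcripts passed, or 1 transcript. An unadjusted p below 0.05 was found for 2 members, against 8.17% of the 15724. In 14 skins 0 of 54 passed in edgeR, beside 0% of 15577 transcripts, and 0 had an unadjusted p below 0.05, against 5.91% of the 15577. DESeq2 called 0 of 52 members in tumor, where it called 0.529% of 17009 transcripts, and 0 of 53 in skin, where it called 0.374% of 13619. The smallest unadjusted p among members in tumor was 0.00418, in a member of the small group, with an edgeR adjusted p of 0.485. These counts do not show that the title numbers are alike.

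Over all 32 libraries, the comparison of tumor with skin called 3 of the 54 members, all of them higher in tumor and all in the large group (edgeR, adjusted p below 0.05), where 23.5% of 14542 transcripts were called. The 3 belonged to the 5 members with the most fish higher in tumor: those at means of 276, 38.2 and 17.6 CPM had log2 fold changes of 3.08, 1.83 and 3.34 (edgeR adjusted p = 0.00191, 0.0414 and 7.33e-04). With the fish as a block, 1 of the 54 was called, where 46.2% of 14591 transcripts were called. Since the rule used D, these counts are a description and nothing is read from them. The median over members of the median D was -0.04, against 0.18 for all 12253 transcripts.

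The term for fish, which compares the mean of both tissues between 14 fish, passed in 8 of the 54 members (edgeR, adjusted p below 0.05), where 79.4% of 14591 transcripts passed. Of the 8, 4 were in the small group and 4 in the large group. The smallest p was that of ENSXMAT00000019446 (edgeR adjusted p = 7.38e-05). The error in this fit is the spread of D between fish, which the rule chose to be large, so the lower share among members follows in part from the choice and is given as a description.

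At the edge of the rule, the 2 members with the least margin had a fourth-highest D of 1.002 and a fourth-lowest D of -1.013. The 2 nearest transcripts outside it had a fourth-highest D of 0.997 and 0.993, with fourth-lowest values of -3.12 and -5.25, and both correlated with the large group at r of 0.98 or more.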

How the data were processed

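RNA from melanoma and skin of 9-month-old hybrids was sequenced as total RNA. The deposited table holds unnormalized counts, as the whole-number values show, with a row for each transcript model and a column for each of 32 libraries. GSNAP is named as the aligner in the submitters' processing notes. For its version, the genome build, the annotation, the counter and the handling of reads shared by the parental alleles, the sources used here give nothing.

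Columns were matched to samples by title, which gave 14 fish with both tissues and 4 further libraries. Pairing comes from the titles: deviations from the tissue mean correlated between the tissues of a fish at r of 0.410 to 0.769, and at most 0.324 between fish. No 2 columns were identical.

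CPM in the text is the count divided by the column total. Python 3.11.15 and SciPy 1.17.1 applied the rule and the grouping. Tests across all transcripts used edgeR 4.0.16 in R 4.3.3 (quasi-likelihood F-test, TMM, filterByExpr, Benjamini-Hochberg adjustment, threshold 0.05). All 54 members passed the low-count filter. Alternatives were DESeq2 1.42.0, RLE size factors, no filter, a fish block, other thresholds of the rule and leaving out single fish or libraries. The fitting and selection steps were tested on simulated data. Figures used matplotlib 3.10.9.

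The members, gene lists and tests were chosen with earlier results of these data known. The rule for naming picks the most abundant members, those with the most fish in their less frequent direction, those with the smallest p by title number, and members of marker lists. No member carries a symbol, so no list could be applied, and 4 identifiers are printed. By the rule these are the most abundant member and the one with the most fish in its less frequent direction. The other 2 were added after their values were seen: the most abundant of the small group and the member that stood alone.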

Additional observations from a re-analysis of the deposited data

Results flagged for a closer look

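Each of 16 sets of 8 libraries of 11949 was screened for a value far from the rest. About 0.8 such values would be expected by chance if the values were normally distributed, and 7 turned up. CPM and shares were screened without a log, and most sets concern members, which the rule chose for their spread. The number found is therefore not read against chance. Flagged values of the large group are not separate, since its members move together. The tumor of 11949l stood highest in the large group, at 14.1% of its counts with the next tumor at 5.09%, in ENSXMAT00000003165, at 19508 CPM with the next at 7238 CPM, and in ENSXMAT00000013451, at 2312 CPM with the next at 746 CPM. In skin, ENSXMAT00000019446 reached 1850 CPM in 11949c, above the next at 405 CPM, and ENSXMAT00000001634 reached 51.9 CPM in 11949h, above the next at 4.40 CPM. Xmrk reached 1343 CPM in the tumor of 11949h, with the next at 809 CPM. The shallowest tumor, 11949f, held 2578877 counts, with 4938279 in the one above it.

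In 174 comparisons of direction between pairs of title numbers, over the members and the medians of their groups, all fish of 1 title number went against all fish of the other in 2. ENSXMAT00000019446 was lower in the tumor of all 3 fish of 11963, with a median D of -1.45, and higher in that of all 3 of 11935. Another member of the small group, at a mean of 63.8 CPM, did the same with a median D of -1.48 in 11963. These differences were not tested, and the same comparison was not made over all transcripts. With 3 fish on each side such opposition can arise by chance, so no difference between title numbers is read from it.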

How the results depend on the processing

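The number of transcripts that met the rule was 54, and it lay between 41 and 61 with other scalings, pseudocounts and minimum levels. With TMM or RLE scaling it was 48, of which 45 were among the 54, and these scalings moved the median D of all transcripts by -0.14 and -0.16. With 3 fish required in each direction it was 110 and with 5 fish 17. Leaving out 1 fish at a time gave 26 to 52. The lowest counts were 26 without 11935d, 26 without 11963d, 28 without 11949l and 34 without 11963g. In each of these fish most members were higher in tumor. Of the 54, 30 had exactly 4 fish with a D of at least 1, and such a member is lost when 1 of those fish is left out. Membership thus depends much on these few fish. In the comparison of tumor with skin, the fish as a replicate block called 1 of the 54 members in place of 3, and DESeq2, RLE scaling, no filter and the 28 paired libraries without the block called 3 each. The block was not applied to the tests by title number, which have 1 library per fish. The counts of 0 by title number stayed 0 in every alternative run, which shows no stability. The 8 members called for the fish term were 8 with RLE scaling and without the filter. For the 4 named identifiers, 20 of 20 alternatives kept the smaller count of fish within 1.5 times. Each fish has 1 library per tissue, so D has no error of its own, and values of a few counts are limited by depth.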
